A study of Gallus gallus with 6 samples.

Results

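Integrins and laminins, the surface receptors and the basement membrane proteins by which neural crest cells hold on to matrix, were measured on an Affymetrix chicken array. The members were all probe sets annotated with exactly 1 symbol of an integrin or laminin chain in a set form, with ITGB4 left out. The form was ITGA or ITGB followed by a number or V, or LAMA, LAMB or LAMC followed by a number. The rule gave 54 of 38439 probe sets, which belong to 26 genes, 15 of integrins and 11 of laminins. Symbols that go on past the number, such as that of the integrin-binding protein ITGB1BP1, were not taken. Neither were integrin symbols with a letter other than V in place of the number, so the set need not hold every integrin chain.

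An integrin is a pair of an alpha and a beta chain in the cell membrane. Outside the cell the pair binds collagen, laminin, fibronectin or other ligands, and inside it is linked to actin through adaptors such as talin. A laminin is a trimer of an alpha, a beta and a gamma chain that is secreted and assembles into basement membrane, and the alpha chain carries the main sites for integrins and dystroglycan. Neural crest cells delaminate from the dorsal neural tube and migrate over fibronectin and laminin, using integrins that contain ITGB1.

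The study compared cultured chicken neural crest cells of the Brown Leghorn background in 2 groups of 3 biological replicates. Neural tubes of embryos at stages 10 to 13 were placed on collagen with retrovirus in the medium, and after 3 days they were taken off, so that the cells which had migrated out remained. In the first group (v-Myb cultures) the construct was v-Myb-L3,4A-HAER, a v-Myb protein with a mutated leucine zipper whose activity is induced by 4-OH-tamoxifen. In the second group (N118D cultures) it was v-Myb-L3,4A-N118D-HAER, which differs by the substitution N118D in the DNA-binding domain. All 6 cultures received 4-OH-tamoxifen at 200 nM for 4 hours. Since no culture went without the virus or the inducer, a difference that existed before induction cannot be told apart from one that followed it. The labels do not say whether the replicates came from separate embryo pools, so the errors below measure the spread between these cultures.

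All levels are log2 values. Array medians ran from 3.08 to 3.11, and a level of 4 was reached by 42.7% to 43.2% of the probe sets. Of the 10 neural crest markers 8 were above the minimum for testing, SOX9 and NGFR were below 4 on all arrays, and the mean level of the 8 was 9.03 to 9.53 in v-Myb cultures and 8.94 to 9.18 in N118D cultures. All 9 melanoblast markers were above the minimum, with means of 10.45 to 11.31 in v-Myb cultures and 10.25 to 10.61 in N118D cultures. Markers of other cell types were also present, and the v-Myb arrays differed from each other in them. The mean of 13 epithelial markers was 7.64 on v-Myb replicate 2 and 8.28 on v-Myb replicate 3, against 9.13 to 9.56 on the other arrays. The mean of 5 neural tube markers was 8.95, 6.42 and 6.39 on v-Myb replicates 1, 2 and 3, against 7.42 to 8.23 on the N118D arrays. In such bulk cultures fewer cells of a type and less RNA per cell cannot be told apart.

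The first question was which chains the cultures expressed. A chain was counted as detected if at least 1 of its probe sets reached 4 on 3 or more of the 6 arrays, and 20 of the 26 chains met this. All 27 probe sets behind these 20 chains were at or above 4 on all 6 arrays, so no member entered the comparison through 1 group alone. Of them 8 stayed under 6 on all arrays, and no probe set of ITGA8, ITGA9, LAMA2 or LAMB2 reached 6. With a minimum of 6 these chains would not have been counted. The other 27 probe sets were not tested, and 10 of the detected chains had such a dim probe set beside a detected one.

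Among the integrins 12 of 15 chains were detected, 9 of 10 alpha and 3 of 5 beta chains. The detected alpha chains were the collagen receptor chains ITGA1, ITGA2 and ITGA11, the laminin receptor chains ITGA3 and ITGA6, and ITGAV and ITGA8, whose ligands carry the RGD motif. The related chains ITGA4 and ITGA9, receptors for fibronectin, VCAM1 or tenascin, completed them. The detected beta chains were ITGB1, the common partner of most of these alpha chains, and ITGB3 and ITGB5, which pair with ITGAV.

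The 3 integrin chains that were not detected were ITGA7, a laminin receptor chain of muscle, ITGB2, the beta chain of leukocyte integrins, and ITGB6, which pairs with ITGAV in epithelia. Their highest values on any array were 3.24 for ITGA7, 3.36 for ITGB2 and 3.91 for ITGB6. A level under 4 says only that the probe set was near the background of this array, since probe sets differ in how well they bind.

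Among the laminins 8 of 11 chains were detected. All 5 alpha chains, LAMA1 to LAMA5, were among them, with the beta chains LAMB1 and LAMB2 and the gamma chain LAMC1. LAMB3, LAMB4 and LAMC3 had highest values of 2.69, 3.29 and 2.12. LAMB3 is the beta chain of laminin-332, the epidermal laminin whose alpha chain is LAMA3, and it was measured by 1 probe set. LAMB4 lies next to LAMB1 in the RefSeq gene table, and all 3 of its probe sets stayed under the minimum.

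**Figure D1:**
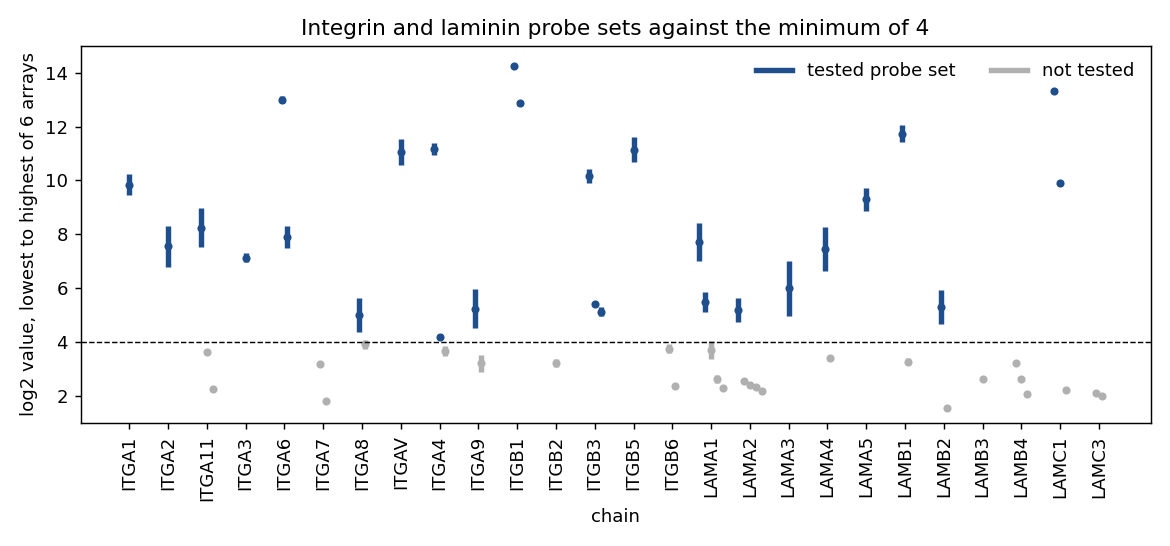
Lowest to highest log2 value over the 6 arrays (y axis) of each of the 54 probe sets, grouped by chain (x axis), with the dashed line at 4. Bars with a dot are probe sets, blue where tested and grey where not; 20 chains have a blue bar, and ITGA7, ITGB2, ITGB6, LAMB3, LAMB4 and LAMC3 have none.

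The second question was how v-Myb cultures differed from N118D cultures. LAMA3 had the lowest difference of all members, 2.18-fold lower in v-Myb cultures, and LAMA2 was 1.38-fold lower. The probe sets of ITGB1 and LAMC1 differed by -0.05 to 0.03 on the log2 scale. No member passed an adjusted p of 0.05 in limma, 0 of 27 tested probe sets, and the percentage over all 16526 tested probe sets was also 0. The adjusted p of every member was 0.9999 in limma. With 3 arrays a group, the smallest p that an exact permutation test allows is 0.1.

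Of the 27 probe sets 16 were lower in v-Myb cultures, or 59.3%, beside 50.8% of all tested probe sets. The median difference of the members was -0.05, against -0.0018 over all tested probe sets. Without v-Myb replicate 1 the members' median was 0.01 and 11 of 27 were lower, beside 50% of all tested probe sets. Without 1 of the other arrays it was 16 to 19 of 27. With a minimum of 6 in place of 4, 9 of 19 members were lower, beside 50.6%, and with median centring 14 of 27, beside 45.7%. With an unadjusted limma p under 0.05 there were 2 members, LAMA3 and LAMA2, beside 1.91% of all probe sets. Both were lower in v-Myb cultures, where the background is 1.06%, and 0 members were higher, where it is 0.841%. Leaving out 1 array moved this count of 2 between 0, without N118D replicate 2, and 5, without v-Myb replicate 1. The share of all tested probe sets moved as well, to 1.28% and 7.30% in these 2 fits.

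The v-Myb and N118D arrays did not overlap for 1 member, LAMA2, which was lower, beside 3.05% of all probe sets, and for 0 members that were higher, beside 2.69%. Past 2-fold there was 1 member, LAMA3, on the lower side, where the background is 0.315%, and 0 members on the higher side, where it is 0.0484%.

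LAMA3, the alpha chain of epithelial laminins, had log2 levels of 6.18, 4.96 and 5.22 in v-Myb replicates 1, 2 and 3, and of 7.02, 6.70 and 5.99 in N118D replicates 1, 2 and 3. Both v-Myb replicates 2 and 3 lay below all N118D arrays, and v-Myb replicate 1 lay above N118D replicate 3, so the groups overlapped. The mean was 5.45 ± 0.64 over the v-Myb arrays and 6.57 ± 0.52 over the N118D arrays (SD, n = 3 each). The difference was -1.12 with a standard error of 0.40 and a 95% interval from -2.11 to -0.14, and it lay between -1.48 and -0.88 when 1 array was left out. The name of its single probe set ends in s_at, which marks sets whose probes can match more than 1 transcript. The brighter LAMA1 probe set and the dimmer tested probe sets of ITGB1 and LAMC1 have the same ending.

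LAMA2, the alpha chain of muscle and peripheral nerve laminin, had levels of 5.27, 4.74 and 5.26 in v-Myb replicates 1, 2 and 3, and of 5.44, 5.63 and 5.60 in N118D replicates 1, 2 and 3. All v-Myb arrays lay below all N118D arrays, with the lowest value on v-Myb replicate 2. The difference was -0.46 with a standard error of 0.16 and a 95% interval from -0.87 to -0.06. It was nearer to 0, at -0.29, without v-Myb replicate 2. The other 4 probe sets of LAMA2 stayed between 2.15 and 2.60 and gave no second measurement of this difference.

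LAMA1, the alpha chain of early embryonic laminin, was measured by 2 tested probe sets. The first had levels of 8.35, 7.0 and 7.74 in v-Myb replicates 1, 2 and 3, and of 8.40, 7.85 and 8.05 in N118D replicates 1, 2 and 3. The second had 5.83, 5.11 and 5.62 in v-Myb cultures, against 5.84, 5.72 and 5.73 in N118D cultures, in the same order. On both, v-Myb replicate 2 was lowest and v-Myb replicate 1 lay within the N118D range. The differences were -0.40 and -0.24 with standard errors of 0.35 and 0.19. Without v-Myb replicate 2 they were -0.06 and -0.04, and without v-Myb replicate 1 they were -0.73 and -0.40.

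LAMA5, a widespread alpha chain of later basement membranes, had levels of 9.51, 8.86 and 9.73 in v-Myb replicates 1, 2 and 3. In N118D replicates 1, 2 and 3 it had 9.64, 9.54 and 9.61, so v-Myb arrays lay on both sides of the N118D arrays. The difference of -0.23 (standard error 0.23) was 0.03 without v-Myb replicate 2. LAMA4, the alpha chain of mesenchymal and vascular laminin, went the other way, with levels of 7.39, 8.26 and 7.10 in v-Myb replicates 1, 2 and 3 and of 6.63, 7.28 and 7.52 in N118D replicates 1, 2 and 3. Its highest value was on v-Myb replicate 2. The LAMA4 difference of 0.44 (standard error 0.37) was 0.10 without that array and 0.68 without v-Myb replicate 3.

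Of the 6 tested laminin alpha probe sets 5 thus had a difference below 0, with a median of -0.32. On those same 5, both of LAMA1 and those of LAMA2, LAMA3 and LAMA5, v-Myb replicate 2 was the lowest of the 6 arrays. The mean deviation of the 6 probe sets from their own mean over all arrays was 0.14, -0.46 and -0.18 on v-Myb replicates 1, 2 and 3, against 0.21, 0.17 and 0.13 on N118D replicates 1, 2 and 3.

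The epithelial markers were lower in v-Myb cultures in 13 of 13 tested genes, with a median difference of -0.92, and their mean level was 9.21, 7.64 and 8.28 on v-Myb replicates 1, 2 and 3, against 9.24, 9.56 and 9.13 on N118D replicates 1, 2 and 3. EPCAM, an epithelial adhesion protein, differed by -1.29. KRT24, a keratin found through the listed symbol KRT19, which RefSeq gives as its synonym, differed by -1.16. Summed over the 13 genes, the log2 levels came to 99.29 to 119.70 in v-Myb cultures and 118.73 to 124.26 in N118D cultures. A further 4 listed markers, CLDN4, ESRP1, DSG2 and ELF3, were below 4 on all arrays. ITGB4, the beta chain that joins ITGA6 in hemidesmosomes, had 7.78, 6.05 and 7.34 in v-Myb replicates 1, 2 and 3 on its tested probe set, and 8.95, 8.25 and 7.79 in N118D replicates 1, 2 and 3. Of the 13 epithelial markers 11 had their lowest value on v-Myb replicate 2, as did ITGB4 and LAMA3. KRT5 was lowest on N118D replicate 1 and the keratin KRT13 on v-Myb replicate 3. The part of these cells in the laminin values was not tested. The sign was the opposite for most markers of the crest lineages, where 9 of 9 melanoblast markers were higher in v-Myb cultures, with a median difference of 0.38, and 7 of 8 neural crest markers, with a median of 0.20. The highest value was on v-Myb replicate 2 for 9 of the 9 melanoblast and for 6 of the 8 neural crest markers. Among these lists 1 melanoblast and 2 epithelial markers had an unadjusted limma p under 0.05, beside 1.91% of all tested probe sets, and 0 passed the adjusted threshold. The 2 epithelial ones were KRT24 and KRT13, which differed by -0.68, and both were found through a synonym of the listed symbol.

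**Figure D2:**
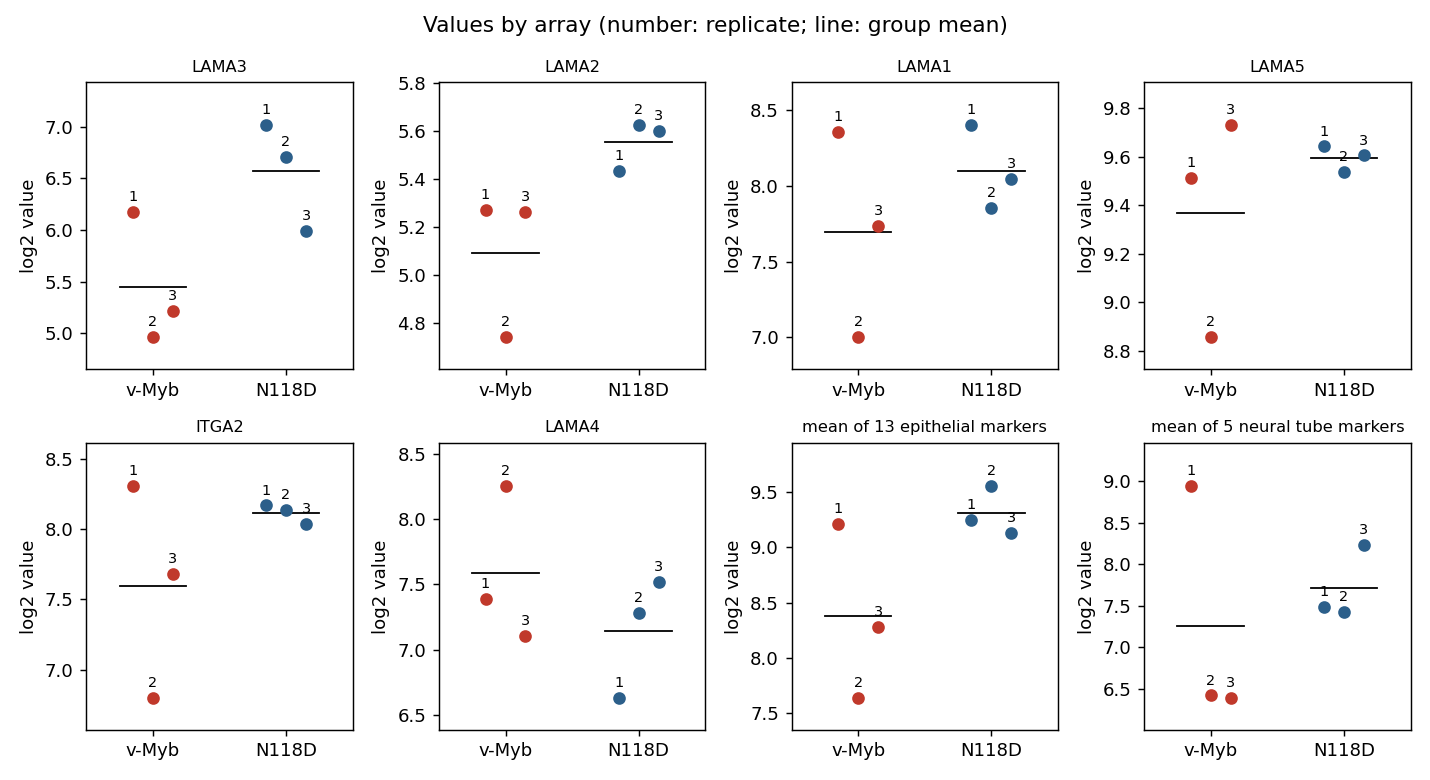
Log2 values by array (y axis, scaled to each panel and not from 0) for v-Myb and N118D cultures (x axis), where each point is 1 array with its replicate number and the line is the group mean, for the brighter tested probe set of each laminin alpha chain, ITGA2, and the means of 13 epithelial and 5 neural tube markers. LAMA3, LAMA2, LAMA1, LAMA5, ITGA2 and the epithelial mean have their lowest point at v-Myb replicate 2, and LAMA4 its highest.

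Of the laminin beta and gamma chains, LAMB1, the beta chain that most laminins of embryonic tissue share, had levels of 11.46, 12.04 and 11.44 in v-Myb replicates 1, 2 and 3, and of 11.61, 11.62 and 11.67 in N118D replicates 1, 2 and 3. It was highest on v-Myb replicate 2, with the other v-Myb arrays below all N118D arrays, and its difference was 0.01 with a 95% interval from -0.42 to 0.45. LAMC1, the gamma chain of most laminins, had 13.34, 13.24 and 13.39 in v-Myb replicates 1, 2 and 3, against 13.31, 13.29 and 13.29 in N118D replicates 1, 2 and 3 on its brighter probe set. Both tested LAMC1 probe sets differed by 0.03, with 95% intervals of -0.15 to 0.21 and -0.19 to 0.26, which leave out a change of 1.5-fold in either direction.

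LAMB2, the beta chain of synaptic and kidney laminins, had 4.66, 5.68 and 5.94 in v-Myb replicates 1, 2 and 3, against 5.62, 5.68 and 5.62 in N118D replicates 1, 2 and 3. Only v-Myb replicate 1 lay clearly below the rest, and the difference of -0.21 was 0.17 without it. On that array the mean of the neural tube markers was highest, and so were 4 of the 5, while SOX3 was highest on N118D replicate 1.

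Among the integrin alpha chains that bind collagen, ITGA2, a chain of epithelia and platelets in mammals, had the lowest difference. Its levels were 8.31, 6.80 and 7.68 in v-Myb replicates 1, 2 and 3, and 8.17, 8.14 and 8.04 in N118D replicates 1, 2 and 3. The N118D arrays lay between 8.04 and 8.17, while v-Myb arrays lay on both sides of them and v-Myb replicate 2 was lowest, as was the mean of the epithelial markers given above. The difference was -0.52 (standard error 0.37), and leaving out v-Myb replicate 2 gave -0.12, leaving out v-Myb replicate 1 gave -0.87.

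ITGA1, a collagen and laminin receptor chain of mesenchymal cells, had 9.45, 9.55 and 10.13 in v-Myb replicates 1, 2 and 3, and 9.98, 10.22 and 9.81 in N118D replicates 1, 2 and 3. Both v-Myb replicates 1 and 2 lay below all N118D arrays and v-Myb replicate 3 lay among them. The difference was -0.30 with a standard error of 0.21, and -0.16 without v-Myb replicate 1. ITGA11, a collagen receptor chain of fibroblasts, had 7.51, 8.03 and 8.99 in v-Myb cultures, against 8.01, 8.04 and 8.46 in N118D cultures, in the same order. Its difference was 0.01 with a 95% interval from -0.93 to 0.96, so the v-Myb arrays spread over more than the groups differed.

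Of the chains for laminin, ITGA6 was measured by 2 probe sets. The brighter one had 13.02, 13.13 and 13.09 in v-Myb replicates 1, 2 and 3, and 13.00, 12.88 and 13.06 in N118D replicates 1, 2 and 3. The groups overlapped, since N118D replicate 3 lay above v-Myb replicate 1. The difference was 0.10 (standard error 0.08), or 0.05 without N118D replicate 2 and 0.14 without N118D replicate 3. The other ITGA6 probe set differed by 0.16, and by 0.43 without v-Myb replicate 1, where it had its lowest value, 7.48. ITGA3, the other detected laminin receptor chain, differed by -0.06 with a 95% interval from -0.33 to 0.21.

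ITGAV, which forms receptors for vitronectin and fibronectin with ITGB1, ITGB3 or ITGB5, had 10.58, 10.76 and 11.52 in v-Myb replicates 1, 2 and 3. In N118D replicates 1, 2 and 3 it had 10.91, 11.28 and 11.08, inside the v-Myb range. Its difference, -0.13, was 0.05 if v-Myb replicate 1 was left out and -0.42 if v-Myb replicate 3 was. ITGA8, a nephronectin receptor chain, had 4.36, 5.62 and 5.25 in v-Myb replicates 1, 2 and 3, against 4.81, 5.18 and 5.26 in N118D replicates 1, 2 and 3, and differed by -0.01 (standard error 0.34).

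ITGA4, which with ITGB1 binds fibronectin and VCAM1, had 10.98, 11.40 and 10.95 in v-Myb replicates 1, 2 and 3 and 11.01, 11.10 and 11.04 in N118D replicates 1, 2 and 3. Its highest value was on v-Myb replicate 2, as was that of 6 of the 8 tested neural crest markers. The other neural crest markers, PAX3 and TWIST1, were highest on N118D replicate 1. The ITGA4 difference was 0.06 and turned to -0.08 without v-Myb replicate 2. A dimmer ITGA4 probe set, at 4.12 to 4.22, differed by -0.01. ITGA9, a receptor chain for tenascin and other ligands, had 5.16, 4.85 and 4.65 in v-Myb replicates 1, 2 and 3, against 5.95, 4.74 and 4.52 in N118D replicates 1, 2 and 3. It was high on N118D replicate 1 alone, and its difference of -0.18 became 0.26 without that array.

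ITGB1, the beta chain shared by most of the detected alpha chains, varied little. Its brighter probe set had 14.21, 14.18 and 14.31 in v-Myb replicates 1, 2 and 3, and 14.24, 14.25 and 14.18 in N118D replicates 1, 2 and 3. Its difference was 0.01 with a 95% interval from -0.17 to 0.19, and its other probe set differed by -0.05 with an interval from -0.25 to 0.15.

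ITGB3, the partner of ITGAV in vitronectin receptors, was measured by 3 probe sets. The brightest had 9.89, 10.23 and 10.27 in v-Myb replicates 1, 2 and 3, and 10.42, 10.29 and 10.01 in N118D replicates 1, 2 and 3. A dimmer one had 4.96, 5.08 and 5.0 in v-Myb cultures, against 5.29, 5.14 and 5.01 in N118D cultures, in the same order. Each pair of groups overlapped, and the differences were -0.11 and -0.13 with standard errors of 0.15 and 0.10. The third, at 5.35 to 5.44, differed by 0.01. ITGB5, another partner of ITGAV, had a difference of 0.18 with a 95% interval from -0.55 to 0.91. Both arrays numbered 1 were low for it, N118D replicate 1 with 10.67 and v-Myb replicate 1 with 10.88. The other arrays lay between 11.44 and 11.60. Each v-Myb array was above the N118D array of the same number, but the numbers were not taken as pairs. Whether a shift shared by number widened this interval was not tested.

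**Figure D3:**
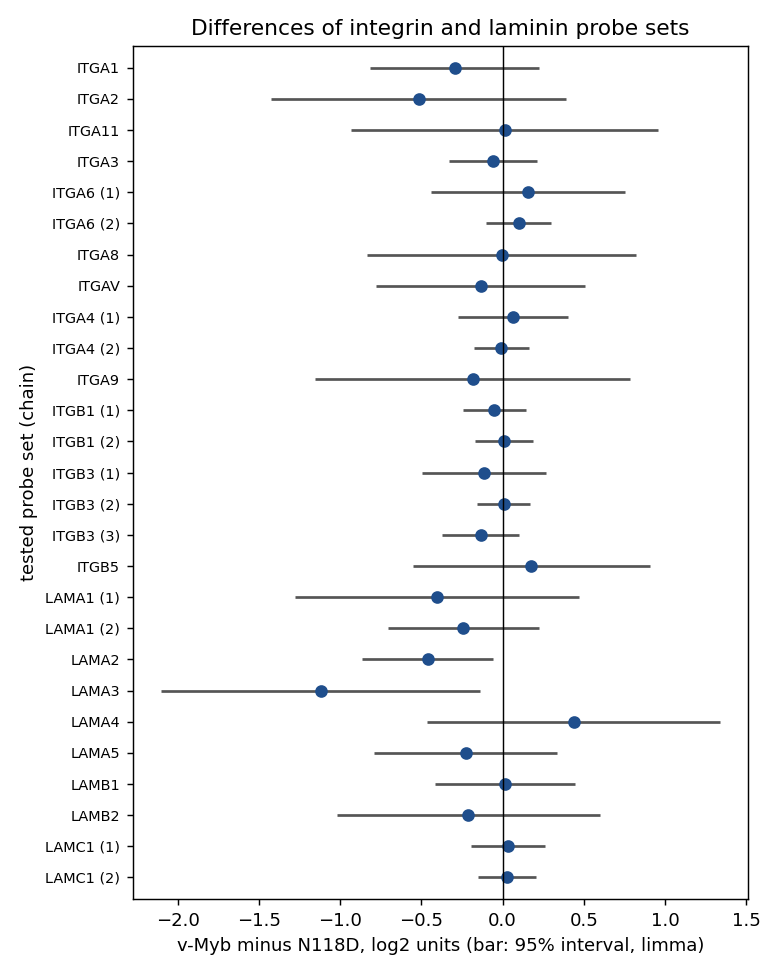
Differences of the 27 tested probe sets (rows, by chain, numbered where a chain has several), v-Myb minus N118D in log2 units (x axis), where the point is the limma estimate and the bar its 95% interval over 3 arrays each. The bars of LAMA2 and LAMA3 lie below 0, and all others cross it.

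The precision differed between chains. The 95% interval lay within 2-fold in either direction for 21 of the 27 members, or 77.8%, beside 90.8% of all tested probe sets. It was within 0.5 log2 units of 0 for 12 members, or 44.4%, beside 64.0%. The 6 members whose interval reached past 2-fold were LAMA3, ITGA2, LAMA1 on its brighter probe set, LAMA4, ITGA9 and LAMB2, and for these the arrays cannot show whether a change of that size was present. For 3 members, LAMA3, LAMA2 and ITGA6 on its brighter probe set, the difference was larger than the SD of either group, beside 13.0% of all tested probe sets.

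Many members spread widely among the arrays. A range of at least 1 log2 unit over the 6 arrays was found in 8 members, or 29.6%, beside 12.6% of all tested probe sets. These were LAMA3 with a range of 2.06, LAMA4 with 1.62, ITGA2 with 1.51, ITGA11 with 1.48, ITGA9 with 1.43, LAMA1 with 1.40, LAMB2 with 1.28 and ITGA8 with 1.26. The SD among v-Myb arrays exceeded that among N118D arrays in 20 of 27 members, or 74.1%, beside 61.5% of all tested probe sets. The members had a median SD of 0.344 over v-Myb arrays and 0.103 over N118D arrays, against 0.159 and 0.126 over all tested probe sets.

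Low values gathered on 2 of the v-Myb arrays. The lowest value of the 6 was on v-Myb replicate 1 for 10 members and on v-Myb replicate 2 for 9, against 2 for each of the other 4 arrays. Over all tested probe sets v-Myb replicates 1 and 2 held the lowest value in 20.7% and 18.6% of cases, and the other 4 arrays in 12.7% to 18.9%. The highest value was on v-Myb replicate 1 for 1 member and on v-Myb replicate 2 for 7. Over all tested probe sets these 2 arrays held the highest value in 19.6% and 22.6% of cases. Thus v-Myb replicate 2 was not low for all members. The members lowest on v-Myb replicate 1 were ITGA1, ITGA11, ITGAV, ITGA8, LAMB2, and the brightest and a dimmer probe set of ITGB3. The dimmer tested probe sets of ITGA4, ITGA6 and ITGB1 were lowest there too. Those lowest on v-Myb replicate 2 were both tested LAMA1 probe sets, LAMA2, LAMA3, LAMA5, ITGA2 and ITGA3. The brighter probe sets of the widely shared chains ITGB1 and LAMC1 were also lowest on v-Myb replicate 2.

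On v-Myb replicate 1 the mean of the neural tube markers was 8.95, as given above, and that of 7 neuron markers was 10.85, where the other arrays had 8.80 to 9.92. The neural tube markers lay at 6.39 to 8.95 in v-Myb cultures and 7.42 to 8.23 in N118D cultures, with 4 of 5 lower in v-Myb cultures, and SOX2 reached 4 on 1 array only, v-Myb replicate 1. Of the neuron markers 4 of 7 were lower. The part of these cells in the integrin values of that array was not tested. Without v-Myb replicate 1, 5 members had an unadjusted p under 0.05 in limma, beside 7.30% of all tested probe sets. They were LAMA3 at -1.48, ITGA2 at -0.87, LAMA1 at -0.73, LAMA2 at -0.55 and ITGA6 at 0.43, with adjusted p in limma of 0.484 to 0.665.

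**Figure D4:**
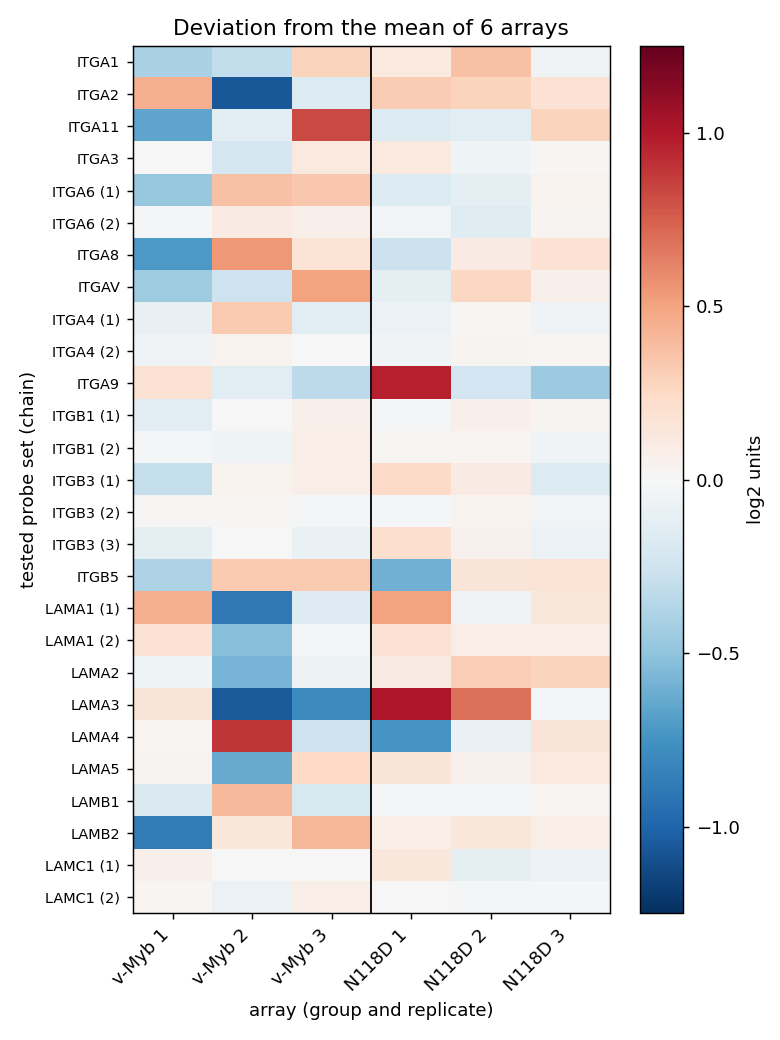
Deviation of each of the 27 tested probe sets (rows) from its own mean over the 6 arrays, in log2 units (colour, red above and blue below), with the 3 v-Myb arrays left of the line and the 3 N118D arrays right of it. ITGA11, ITGA8 and LAMB2 are blue on v-Myb replicate 1, and LAMA3, ITGA2 and LAMA1 on v-Myb replicate 2.

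Proteins that work with integrins inside the cell or beside them in the membrane were read from a list of 43 genes, of which 34 were tested. Of these 19 were lower and 15 higher in v-Myb cultures, beside 50.8% lower over all tested probe sets, with a median difference of -0.02. In limma 0 had an unadjusted p under 0.05, beside 1.91% of all tested probe sets, and 0 an adjusted one. KANK1, a talin-binding adaptor at the rim of adhesions, differed by -0.14, and PARVA, an adaptor in the complex of integrin-linked kinase, by -0.30. ILK, that kinase itself, differed by 0.10, and FYN, a Src family kinase, by 0.13. The talin gene TLN1 differed by -0.01 and the focal adhesion kinase gene PTK2 by -0.15, with its lowest value on v-Myb replicate 2, 11.12.

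Partners of laminin in basement membranes and other integrin ligands came from a list of 42 genes, of which 27 were tested. Here 21 were lower and 6 higher in v-Myb cultures, with a median of -0.10, beside 50.8% lower and a median of -0.0018 over all tested probe sets. The mean level of the 27 was 9.32, 9.25 and 9.50 on v-Myb replicates 1, 2 and 3, against 9.46, 9.48 and 9.51 on N118D replicates 1, 2 and 3. The lower means were thus on v-Myb replicates 1 and 2, and v-Myb replicate 3 lay within the N118D range. FBLN5, an elastic fibre protein that binds integrins, differed by -0.52. It alone had an unadjusted limma p under 0.05, beside 1.91% of all tested probe sets, and 0 genes passed the adjusted threshold. SPP1, the integrin ligand osteopontin, differed by -0.81 with 8.04, 8.03 and 9.08 in v-Myb replicates 1, 2 and 3 and 9.66, 8.84 and 9.08 in N118D replicates 1, 2 and 3. FRAS1, a basement membrane protein under epithelia, differed by -0.31, and NID1, which links laminin to collagen IV, by -0.22. The collagen IV genes COL4A1 and COL4A2 differed by 0.06 and 0.05, and the fibronectin gene FN1 by -0.12.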

How the data were processed

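Biotin-labelled RNA from 6 cultures, made from 100 ng of total RNA each, was hybridised to 1 array per culture, per the labels' protocols. In the deposited table each array has 1 log2 value per probe set, for which GCRMA and Partek 6.4 are named, per the submitters' processing notes. The log2 scale was read from the values. GCRMA shrinks differences of dim probe sets. The step done in Partek is not given in the sources used here.

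After 96 control probe sets were left out, 16526 of 38439 that reached 4 on 3 or more arrays were tested with limma 3.58.1 in R 4.3.3, with group as the only term, p-values adjusted by Benjamini-Hochberg over every tested probe set and called under 0.05. Each difference is v-Myb minus N118D. Symbols came from the platform annotation, and all 26 member symbols are current in RefSeq's table. The listed genes KRT15, KRT19, PERP and CTGF were found under the symbols KRT13, KRT24, PERPB and CCN2, of which RefSeq gives them as synonyms.

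Members and lists were chosen with earlier results of these data known. Values by array are given for the 12 members with the smallest p, those with a range of at least 1, and ITGB1, ITGAV, ITGA4, ITGA6, LAMB1 and LAMC1, on the brightest probe set of each. List genes are represented by their brightest tested probe set. In the lists of integrin and laminin partners the genes with the smallest p were named. Besides these, TLN1, PTK2, COL4A1, COL4A2 and FN1 were chosen after their values were seen. Of the cell type markers named, KRT24 and KRT13 were given as those of the epithelial list with an unadjusted limma p under 0.05. The others, such as EPCAM, were not chosen by the smallest p. The marker lists not described above had 2 of 2 glial, 2 of 4 muscle, 1 of 2 cartilage, 2 of 3 endothelial and 1 of 2 blood genes lower in v-Myb cultures. On simulated data, limma recovered 56.5% of 200 planted log2 differences of 1 among the 16526 probe sets. The simulated errors were independent between probe sets, and 5.27% of unchanged ones had an unadjusted limma p under 0.05, against 1.91% in the data. The median standard error was 0.19 for the members and 0.13 for all tested probe sets, so the 56.5% does not describe the members. Alternatives were other filters and normalizations, moderation with trend, weights per array, replicate number as a block, means per gene and left-out arrays.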

Additional observations from a re-analysis of the deposited data

How the results depend on the processing

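Under all 15 alternatives 0 members passed the adjusted threshold in limma, and 0 of all tested probe sets did. Of the 294 alternative differences of the 20 probe sets given by array, 25 had the opposite sign, in 11 probe sets, and LAMA3, LAMA2, ITGA2, ITGA1, LAMA4, both LAMA1 probe sets, 1 of ITGB3 and 1 of ITGA6 turned in none. Without a filter 34 of 54 members were lower, beside 62.9% of all probe sets in that fit. With a minimum of 6 it was 9 of 19, beside 50.6%. That fit had 1 member at an unadjusted p under 0.05 in limma, beside 1.58% of its probe sets, and a median member difference of 0.010. The median was -0.0051 with array weights and 0.028 without both arrays numbered 1. Leaving out 1 array gave medians from -0.092 to 0.012 and 11 to 19 members lower, beside 47.4% to 53.2% of all tested probe sets. Members at an unadjusted limma p under 0.05 numbered 0 without N118D replicate 2 and 5 without v-Myb replicate 1, beside 1.28% and 7.30% of all tested probe sets. This count was 1 without v-Myb replicate 2, N118D replicate 1 or N118D replicate 3, beside 1.06%, 1.88% and 1.76%. Without v-Myb replicate 3 it was 3, beside 3.42%. Signs turned when 1 array was left out for LAMA5 (-0.41 to 0.028), ITGB3 (-0.23 to 0.0072), LAMB2 (-0.47 to 0.17), ITGA11 (-0.39 to 0.35), ITGA8 (-0.28 to 0.35), ITGA9 (-0.46 to 0.26), ITGB1 (-0.029 to 0.038), ITGAV (-0.42 to 0.053), ITGA4 (-0.082 to 0.15), LAMB1 (-0.18 to 0.12) and LAMC1 (-0.0082 to 0.068). Without both arrays numbered 1 the difference was 0.10 for ITGB3, 0.16 for LAMB2, 0.22 for ITGA8 and 0.12 for ITGA9. With array weights it was 0.10 for ITGA8 and 0.029 for ITGA9, with median centring 0.0063 for ITGA8, with quantile normalization -0.0026 for ITGB1 and with the mean per gene -0.020 for ITGB1. The replicate number as a block left 2 members at an unadjusted p under 0.05 and gave 666 over all tested probe sets, against 315 without the block. Deviations of same-numbered arrays correlated at 0.40, 0.45 and -0.05, and 4 of 6 arrays correlated best with their own number, while the third pair did not correlate and the labels give no shared batch, so the numbers were not taken as pairs and a batch behind them was not tested. The cause of these shifts was not tested. With 3 arrays a group and dim values pulled towards the floor, small differences of chains near 4 could not be measured.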
